A study of Homo sapiens with 9 samples.

Results

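MicroRNA silencing and mRNA decay are carried out by a set of complexes whose genes were listed here by symbol: 4 Argonautes, 5 measured microRNA processing factors, 3 GW182 scaffolds, 11 CCR4-NOT subunits, 2 TOB recruiters, PAN2 and PAN3, 8 decapping factors, 3 exonucleases, 5 RNA-binding regulators and 2 terminal uridylyltransferases. Of 46 genes in the list, 45 were measured, out of 19775 genes on the array. A gene was counted where the array annotation gave a probe set (a group of short oligonucleotides read as 1 value) that symbol and no other, and its value was taken from the brightest of its probe sets, by the mean of all 9 arrays. DGCR8, the partner of DROSHA, lay only on 4 probe sets that carry several symbols and was not analysed here. The other 45 genes had 146 probe sets, from 1 to 7 for a gene.

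The cells were MDA-MB-231, an established human line of triple-negative breast cancer. Groups of 3 biological replicates were each reverse transfected by lipofection (Lipofectamine) with 10 nM of a small RNA: Qmimic, Dmimic or AllStar, the negative control. RNA was taken 48 h later, and no untransfected cells were among the arrays, so every group had received a small RNA and the lipid. The series title names miR-34a, while the labels give no sequence for either mimic and do not say what Q and D stand for.

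In animal cells an Argonaute protein holds a small RNA and pairs its seed with sites in mRNAs. GW182 proteins bound to Argonaute bring in the PAN2-PAN3 and CCR4-NOT deadenylases, which shorten the poly(A) tail. The mRNA is then decapped by DCP2 with its cofactors and degraded from the 5′ end by XRN1. A transfected mimic enters the same machinery by way of Argonaute.

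The mature microRNAs of the MIR34A hairpin and some of the microRNAs that share the seed of its 5p arm are shown because miR-34a is the microRNA of the series title. They were taken from RefSeq (GRCh38.p14), with the seed, bases 2 to 8, in capitals.
hsa-miR-34a-5p: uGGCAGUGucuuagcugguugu
hsa-miR-449a: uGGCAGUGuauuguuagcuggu
hsa-miR-449b-5p: aGGCAGUGuauuguuagcuggc
hsa-miR-34a-3p: cAAUCAGCaaguauacugcccu
The first lies on the minus strand at chr1:9151735-9151756 and its 3p partner at chr1:9151693-9151714. The miR-449 microRNAs lie on the minus strand at chr5:55170586-55170607 and chr5:55170706-55170727. The sequences describe the microRNA of the title; whether a mimic's strands equal them was not tested.

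One control array stood apart. Over all probe sets except controls, the other 8 arrays correlated with each other at 0.993 to 0.998, and AllStar replicate 3 correlated with them at 0.974 to 0.981. Its interquartile range was 2.99 log2 units, against 3.41 to 3.53 in the other 8 arrays. Calls of machinery genes are therefore given over 9 arrays and over 8, without that array. Differences of single genes are in part given over 8 arrays only. Of 6 mesenchymal markers of the line, 5 (VIM, CD44, CAV1, LOX and AXL) lay above the median gene and SPARC below it. Of 6 fibroblast and endothelial markers, 2 lay above it, and so did 4 of 7 luminal and receptor markers (ESR1, GATA3, EPCAM and KRT19). Among the other luminal markers the epithelial cadherin CDH1 read low, at 3.44 to 3.68 with Qmimic, 3.57 to 3.76 with Dmimic and 3.59 to 4.02 with AllStar. The mean of the 3 measured leukocyte markers, none of them above the median gene, was 5.11 to 5.15 with Qmimic, 5.13 to 5.16 with Dmimic and 4.93 to 5.44 with AllStar.

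For the machinery that array was low. AllStar replicate 3 lay below both other AllStar arrays for 41 of 45 genes (91.1%), against 50.3% of all genes. The machinery genes were brighter than most, with a median mean level of 8.50 in log2 signal against 6.59 for all genes. Whether other genes as bright read as low in that array was not tested. It lay above both for TNRC6B, CNOT9 and LSM1. The difference between AllStar replicate 3 and the mean of AllStar replicates 1 and 2 had a median of -0.49 on the log2 scale over the 45 genes and -0.05 over all genes, and it ran from -1.08 (XRN1) to 1.32 (CNOT9). The median standard deviation within a group was 0.183 log2 units over the 45 genes with all 9 arrays and 0.0805 without that array, against 0.153 and 0.0874 over all genes. The heat map by array and complex shows this column of low values.

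**Figure D1:**
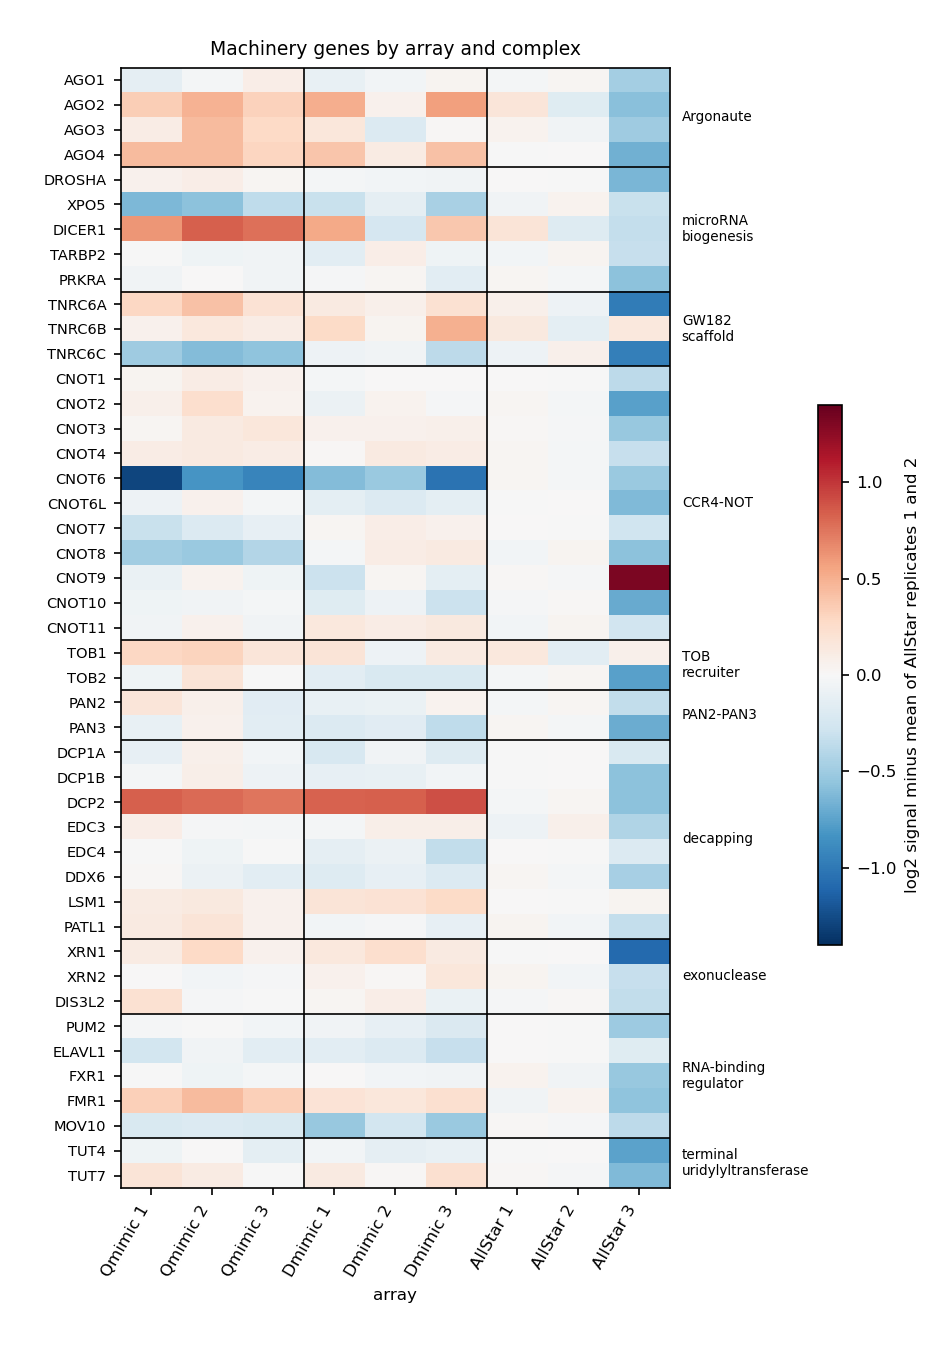
The log2 signal of each of 45 machinery genes (rows, grouped by complex) in each array (columns) minus the mean of AllStar replicates 1 and 2, on a colour scale from blue (lower) to red (higher). DCP2 is high and CNOT6 low in all 6 mimic arrays, and AllStar replicate 3 is low for 41 of 45 genes, with CNOT9 at 1.32 as the strongest exception.

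In cells given either mimic, DCP2, the enzyme that removes the mRNA cap, was higher and CNOT6, a poly(A) nuclease of the CCR4-NOT complex, was lower than with AllStar once AllStar replicate 3 was left out. No other gene of the machinery passed the test. A gene was called where limma's test, with Benjamini-Hochberg adjustment over all 54613 probe sets, gave an adjusted p under 0.05 and the groups differed by at least 1.5-fold. Over 9 arrays the only call was DCP2, in the comparison of both mimics (the mean of both mimic group means) with AllStar. These p-values measure the spread between the transfections of this experiment. In a bulk sample, fewer cells with a transcript and less of it in each cell cannot be told apart.

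The counts were small throughout. Over 9 arrays, 0 of 45 machinery genes were called with Qmimic (0% of all genes), 0 with Dmimic (0.0101%) and 1 with both mimics (0.131%). At an unadjusted p under 0.05, 9 of 45 passed with Qmimic (19.7% of all genes), 8 with Dmimic (17.3%) and 12 with both mimics (24.1%), shares close to those of all genes. Over 8 arrays, 2 of 45 were called with Qmimic (0.693%), the same 2 with Dmimic (1.27%) and the same 2 with both mimics (1.04%), DCP2 higher and CNOT6 lower each time. The Qmimic and Dmimic comparisons share their AllStar arrays, so their calls are not independent of each other.

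The middle of the machinery moved with the 1 control array. Over 9 arrays the median log2 change with both mimics was 0.15 for the 45 genes, 36 of them above 0 against 47.1% of all genes, and -0.02 for all genes. Over 8 arrays it was -0.01 for the 45 genes, 22 of them above 0 against 49.7% of all genes, and -0.00 for all genes. With Qmimic the medians for the machinery were 0.17 over 9 arrays and -0.00 over 8, and with Dmimic 0.15 and -0.03. The move was not particular to the machinery. In 81 measured genes of a wider RNA decay list the median with both mimics was 0.12 over 9 arrays and -0.003 over 8. The part of AllStar replicate 3 in the values over 9 arrays is thus given by the values over 8. What set that array apart was not tested.

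**Figure D2:**
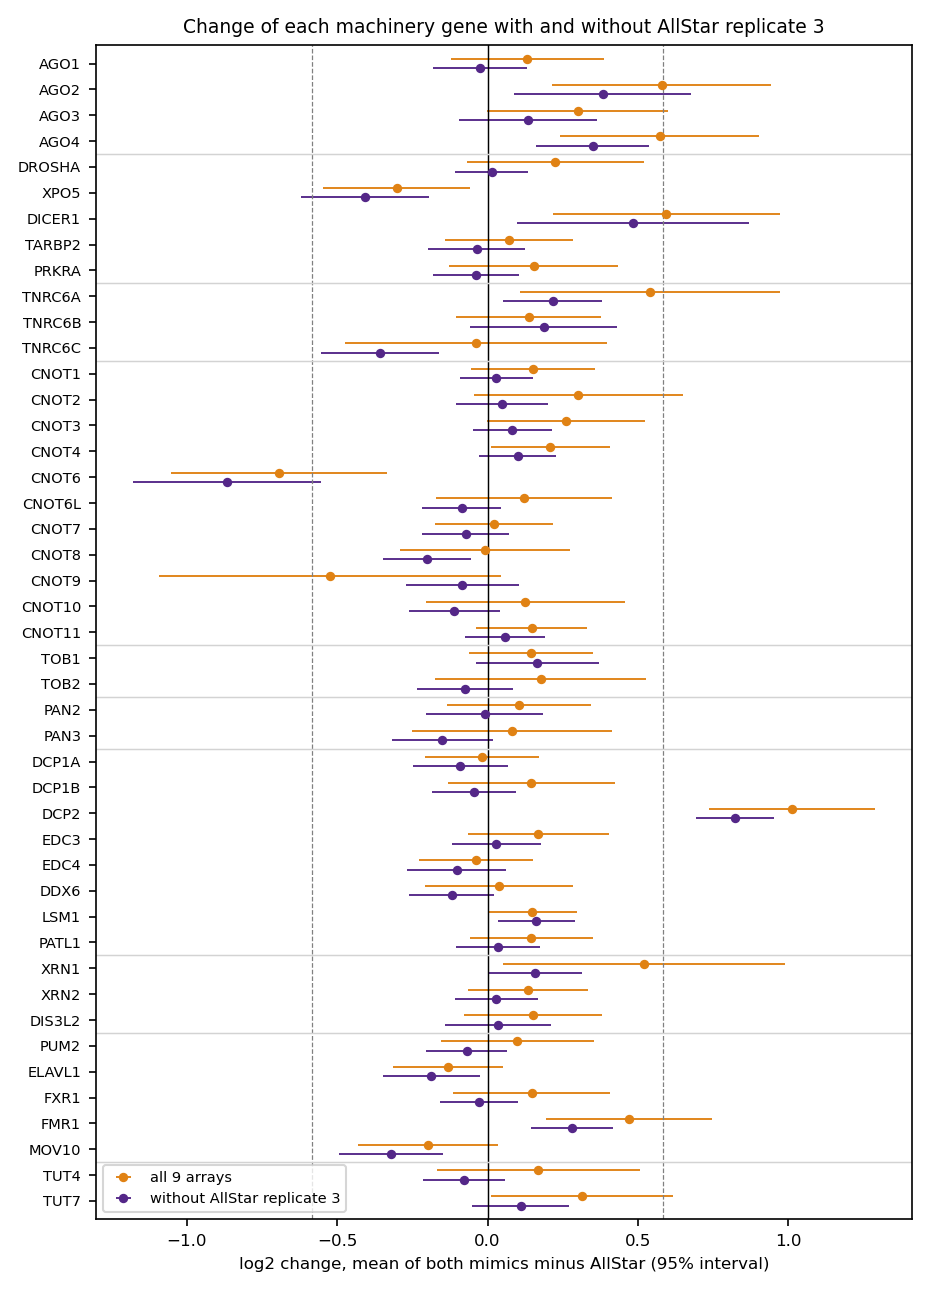
The log2 change of each machinery gene, mean of both mimics minus AllStar, with 95% intervals, over all 9 arrays (orange) and without AllStar replicate 3 (purple). Dashed lines mark 1.5-fold in each direction; most orange points sit to the right of their purple partners, DCP2 lies beyond the right line in both colours, and CNOT6 lies beyond the left line in both.

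Decapping was where the clearest single change lay. DCP2, on its brightest probe set (212919_at), read 10.30, 10.25 and 10.21 with Qmimic, 10.29, 10.30 and 10.36 with Dmimic, and 9.44, 9.49 and 8.89 with AllStar, in log2 signal. All 6 mimic arrays lay above all 3 AllStar arrays, and the gap to the nearest AllStar array was far wider than the spread among the mimic arrays. The means were 10.25 ± 0.05 with Qmimic, 10.32 ± 0.04 with Dmimic and 9.27 ± 0.33 with AllStar (SD, n = 3 each).

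DCP2 rose 2.02-fold with both mimics over 9 arrays (log2 1.01, 95% interval 0.74 to 1.29, adjusted p 0.0341). Over 8 arrays it rose 1.77-fold (log2 0.82, SE 0.06, adjusted p 0.00179). Each mimic alone gave a call over 8 arrays, 1.73-fold with Qmimic (adjusted p 0.00268) and 1.81-fold with Dmimic (adjusted p 0.00245), and neither did over 9 (adjusted p 0.111 with Qmimic and 0.0669 with Dmimic). Qmimic and Dmimic differed by -0.06 in DCP2 over 8 arrays, with an interval of -0.19 to 0.07.

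A second DCP2 probe set (235258_at) gave the same call at a lower level. It read 7.51, 7.48 and 7.28 with Qmimic, 7.43, 7.32 and 7.60 with Dmimic, and 6.47, 6.49 and 6.12 with AllStar, and rose 2.11-fold over 9 arrays with both mimics (adjusted p 0.0279) and 1.94-fold over 8 (adjusted p 0.00297). The other probe sets that the annotation gives to DCP2 did not pass. Probe set 244777_at differed by -0.07 with both mimics over 8 arrays (interval -0.25 to 0.11, adjusted p 0.706), and 238779_at by 0.08 (interval -0.07 to 0.23, adjusted p 0.584). For 244777_at the mimic arrays read between 6.47 and 6.81 and overlapped the AllStar arrays at 6.75, 6.78 and 6.33. Thus 2 of 4 DCP2 probe sets carried the change, and which transcript forms each reads was not tested. In each AllStar array 244777_at, which did not pass, read above 235258_at, which did.

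The other decapping factors, 7 in number, gave no call in any comparison. With both mimics over 8 arrays their log2 changes were -0.09 for DCP1A and -0.04 for DCP1B, the activating partners of DCP2. They were 0.03 for EDC3 and -0.10 for EDC4, the enhancers of decapping. DDX6, the helicase that links CCR4-NOT to decapping, differed by -0.12 (adjusted p 0.353), and PATL1, a scaffold between deadenylation and decapping, by 0.03. LSM1, a subunit of the ring that binds shortened tails, read 10.18, 10.20 and 10.13 with Qmimic, 10.25, 10.27 and 10.33 with Dmimic, and 10.07, 10.06 and 10.10 with AllStar. Its groups did not overlap, but the difference was small (log2 0.16 over 8 arrays, adjusted p 0.157).

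CNOT6 (also called CCR4a) went the other way. On its brighter probe set (217970_s_at) it read 7.82, 8.27 and 8.17 with Qmimic, 8.49, 8.58 and 8.07 with Dmimic, and 9.12, 9.08 and 8.58 with AllStar. Every mimic array lay below AllStar replicates 1 and 2. AllStar replicate 3, at 8.58, came close to the highest Dmimic array.

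**Figure D3:**
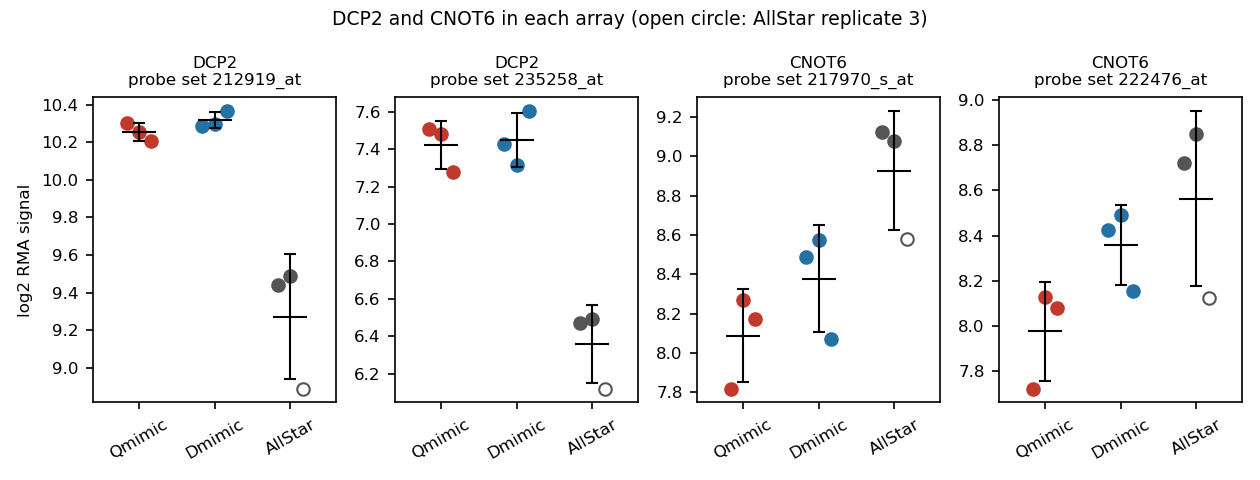
Log2 signal of DCP2 and CNOT6, each on 2 probe sets, in every array of the Qmimic, Dmimic and AllStar groups, with group mean and SD (n = 3) as bars. The open circle is AllStar replicate 3; both DCP2 probe sets separate all 6 mimic arrays from AllStar, while CNOT6 probe set 222476_at overlaps only through the open circle, at 8.12.

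CNOT6, without AllStar replicate 3, fell 2.02-fold with Qmimic (log2 -1.01, interval -1.36 to -0.66, adjusted p 0.0172) and 1.65-fold with Dmimic (log2 -0.72, adjusted p 0.0452). With both mimics it fell 1.82-fold (log2 -0.87, SE 0.14, adjusted p 0.0164). Over 9 arrays the difference with both mimics was -0.69 (interval -1.05 to -0.33) and did not pass (adjusted p 0.0978). The second probe set (222476_at) was called lower over 8 arrays with Qmimic (1.75-fold, adjusted p 0.0201) and with both mimics (1.54-fold, adjusted p 0.0269). With Dmimic it differed by -0.43 (adjusted p 0.119). The 8-array calls rest on the AllStar arrays 1 and 2: without either of them, CNOT6 no longer passed, at adjusted p 0.183 without AllStar replicate 1 and 0.176 without AllStar replicate 2 for both mimics. With a further array left out in turn, the CNOT6 call held in 4 of 8 fits for Qmimic, 2 of 8 for Dmimic and 6 of 8 for both mimics. The Dmimic call was also lost when the Dmimic and AllStar arrays were fitted alone (adjusted p 0.103).

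The remaining CCR4-NOT subunits, 10 in number, gave no call in any comparison. CNOT1 is the scaffold of the complex, and over 8 arrays it differed by 0.03 with both mimics. CNOT2 and CNOT3, which form a module on its C-terminal end, differed by 0.05 and 0.08. CNOT4, a ubiquitin ligase, differed by 0.10, and CNOT10 and CNOT11, of the N-terminal module, by -0.11 and 0.06. CNOT6L, the paralogue of CNOT6, differed by -0.09 on its representative probe set (adjusted p 0.484). Its dimmer probe set 238438_at gave a 1.49-fold lower value with Qmimic (adjusted p 0.0466), just under the 1.5-fold threshold.

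CNOT9, the subunit that GW182 proteins contact, was the gene most moved by the odd control array. It read 8.19, 8.33 and 8.23 with Qmimic, 7.98, 8.32 and 8.15 with Dmimic, and 8.30, 8.27 and 9.61 with AllStar. Its difference with both mimics was -0.52 over 9 arrays (interval -1.09 to 0.04, adjusted p 0.285) and -0.08 over 8 (adjusted p 0.661).

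CNOT7 and CNOT8 are the other catalytic deadenylases of the complex, and a CCR4-NOT complex holds one or the other. CNOT8 read 9.13, 9.10 and 9.21 with Qmimic, 9.59, 9.72 and 9.75 with Dmimic, and 9.58, 9.66 and 9.04 with AllStar. Qmimic arrays were low and Dmimic arrays sat with AllStar replicates 1 and 2. The difference between Qmimic and Dmimic was -0.54 (interval -0.69 to -0.40, 1.46-fold, adjusted p 0.0132 over 8 arrays), which passed on p and missed the 1.5-fold threshold. With all 9 arrays in the fit that difference had an interval of -0.87 to -0.22 and did not pass (adjusted p 0.9999). Set against AllStar over 8 arrays, CNOT8 was 1.39-fold lower in value with Qmimic (log2 -0.47, adjusted p 0.0177), while with Dmimic the difference was 0.07 (interval -0.09 to 0.23, adjusted p 0.712). A second CNOT8 probe set (202162_s_at) differed by -0.37 between the mimics (adjusted p 0.0422), and the third (202163_s_at) by -0.35 (adjusted p 0.137).

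CNOT7 showed smaller differences of the same sign. It read 10.51, 10.63 and 10.71 with Qmimic, 10.85, 10.92 and 10.88 with Dmimic, and 10.83, 10.82 and 10.54 with AllStar. The Qmimic and Dmimic arrays did not overlap, but the difference of -0.27 (interval -0.41 to -0.12) did not pass (adjusted p 0.178).

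**Figure D4:**
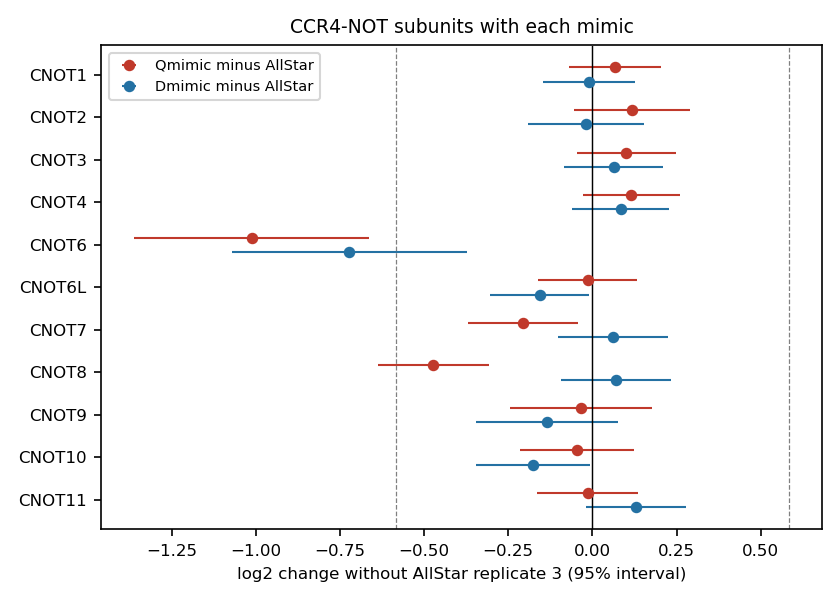
The log2 change of each CCR4-NOT subunit with Qmimic (red) and with Dmimic (blue), each minus AllStar, without AllStar replicate 3, with 95% intervals and dashed lines at 1.5-fold. CNOT6 is below the left line with both mimics, and CNOT8 lies at -0.47 with Qmimic and 0.07 with Dmimic.

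Between the mimics, no machinery gene was called over 9 arrays (0% of all genes; 3 of 45 at an unadjusted p under 0.05, 2.54% of all genes) or over 8 (0.0961%; 13 of 45, 11.7%). AllStar replicate 3 does not enter these differences, only the estimate of the spread behind them. In 19 of 45 genes all 3 Qmimic arrays lay on one side of all 3 Dmimic arrays, against 17.5% of all genes. Of these, 13 were higher with Qmimic (8.12% of all genes), among them DROSHA, DICER1, CNOT1, PAN3 and EDC4, and 6 were lower (9.4%), namely TNRC6C, CNOT7, CNOT8, CNOT11, LSM1 and XRN2. The median difference was 0.07 over the 45 genes and -0.01 over all genes. Whether other genes as bright as the machinery differ as often between the mimics was not tested.

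Argonautes, the small RNA binding proteins, gave no call. AGO2, the one that can cut its target, read 10.54, 10.69 and 10.53 with Qmimic, 10.71, 10.27 and 10.78 with Dmimic, and 10.37, 10.03 and 9.61 with AllStar. Dmimic replicate 2 lay below AllStar replicate 1. The difference with both mimics was 0.58 over 9 arrays (adjusted p 0.137) and 0.38 over 8 (interval 0.09 to 0.68, adjusted p 0.146). AGO4 read 7.94, 7.94 and 7.80 with Qmimic, 7.89, 7.62 and 7.90 with Dmimic, and 7.49, 7.51 and 6.83 with AllStar, with no overlap between mimic and AllStar arrays. It differed by 0.57 over 9 arrays (adjusted p 0.12) and 0.35 over 8 (interval 0.16 to 0.54, adjusted p 0.0541).

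AGO1 and AGO3 differed less with both mimics over 8 arrays, by -0.03 and 0.13 on their representative probe sets. A dimmer AGO3 probe set (228932_at) differed by 0.36 (adjusted p 0.0292), which is under 1.5-fold. All 4 AGO3 probe sets had a log2 change above 0 with Qmimic over 8 arrays, and 2 of 4 did with Dmimic. The median difference of the 4 Argonautes was 0.44 over 9 arrays and 0.24 over 8, beside a median of -0.54 for AllStar replicate 3 against the other AllStar arrays.

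Among the microRNA processing factors, DICER1, which cuts the precursor hairpin, had the largest difference. It read 10.39, 10.60 and 10.54 with Qmimic, 10.30, 9.54 and 10.15 with Dmimic, and 9.96, 9.59 and 9.44 with AllStar. The Qmimic arrays lay above all AllStar arrays, and Dmimic replicate 2 lay among the AllStar arrays. Over 8 arrays the difference with Qmimic was 0.74 (interval 0.31 to 1.17), past 1.5-fold but with an adjusted p of 0.084. Without AllStar replicate 3, a fit of the Qmimic and AllStar arrays alone gave an adjusted p of 0.0187. The fit of all 3 groups gave 0.0208 when Dmimic replicate 2 was left out as well. With all 9 arrays the Qmimic difference was 0.85 (adjusted p 0.175), and these 2 alternatives gave adjusted p 0.336 and 0.202. No other alternative over 8 arrays called DICER1 with Qmimic. Among its 6 probe sets, 5 had a log2 change above 0 with Qmimic over 8 arrays, and none was called over 9 or 8 arrays. With Dmimic over 8 arrays the difference was 0.23 (adjusted p 0.627). Between the mimics over 8 arrays it was 0.51 (interval 0.13 to 0.90, adjusted p 0.317).

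XPO5, which exports precursor microRNAs from the nucleus, was lower in value with Qmimic. It read 9.45, 9.51 and 9.72 with Qmimic, 9.76, 9.95 and 9.63 with Dmimic, and 10.03, 10.12 and 9.76 with AllStar. Over 9 arrays the Qmimic difference was -0.41 and did not pass (adjusted p 0.223). Over 8 arrays the Qmimic difference was -0.52 (1.43-fold, adjusted p 0.0439), and that of Dmimic -0.30 (adjusted p 0.177). A second probe set (223057_s_at) gave -0.53 with Qmimic (adjusted p 0.0237). Neither reached 1.5-fold. DROSHA, the nuclear processing nuclease, differed by 0.01 with both mimics, and the Dicer partners TARBP2 and PRKRA by -0.04 each.

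The GW182 scaffolds, which join Argonaute to the deadenylases, did not move as one. TNRC6C read 6.45, 6.34 and 6.39 with Qmimic, 6.88, 6.91 and 6.59 with Dmimic, and 6.88, 7.02 and 5.99 with AllStar. AllStar replicate 3 was the lowest array of all. With it left out, the Qmimic difference was -0.56 (1.47-fold, adjusted p 0.028) and the Dmimic difference -0.16 (adjusted p 0.469). With that array in the fit the Qmimic difference was -0.24 (adjusted p 0.554).

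TNRC6A read 9.20, 9.33 and 9.12 with Qmimic, 9.04, 8.99 and 9.13 with Dmimic, and 8.99, 8.85 and 7.94 with AllStar. Its difference with both mimics was 0.54 over 9 arrays (adjusted p 0.199) and 0.22 over 8 (adjusted p 0.145). A second TNRC6A probe set (224704_at) differed by 0.34 over 8 arrays (adjusted p 0.0252), under 1.5-fold. Among the 6 TNRC6A probe sets, 3 had a log2 change above 0 with Qmimic over 8 arrays, and 5 with Dmimic. TNRC6B differed by 0.14 over 9 arrays and 0.19 over 8 (adjusted p 0.402).

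The PAN2-PAN3 deadenylase and the TOB proteins, which tie CCR4-NOT to poly(A)-binding protein, gave no call. With both mimics over 8 arrays PAN2, the nuclease, differed by -0.01 and PAN3, its partner, by -0.15 (adjusted p 0.32). TOB1 differed by 0.17 (adjusted p 0.374) and TOB2 by -0.08. A second TOB1 probe set (202704_at) passed on p with Qmimic over 8 arrays (log2 0.38, adjusted p 0.0393) and stayed under 1.5-fold.

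The exonucleases gave no call. XRN1, which degrades decapped mRNA from the 5′ end, read 7.67, 7.84 and 7.62 with Qmimic, 7.70, 7.80 and 7.69 with Dmimic, and 7.55, 7.57 and 6.48 with AllStar. All 6 mimic arrays lay above the AllStar arrays, and the difference with both mimics was 0.52 over 9 arrays (interval 0.05 to 0.99, adjusted p 0.233) and 0.16 over 8 (adjusted p 0.252). A second probe set (225814_at) differed by 0.28 over 8 arrays (adjusted p 0.0418). The XRN1 probe sets were split: 2 of 4 had a log2 change above 0 with Qmimic over 8 arrays, and 2 of 4 with Dmimic. XRN2, the nuclear relative, and DIS3L2, a nuclease of uridylated RNA that works from the 3′ end, each differed by 0.03 over 8 arrays.

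Of the RNA-binding regulators, FMR1 and MOV10 passed on p over 8 arrays without reaching 1.5-fold. Over 9 arrays neither passed, at adjusted p 0.189 for FMR1 with Qmimic and 0.324 for MOV10 with Dmimic. FMR1, a translational repressor, read 9.71, 9.82 and 9.71 with Qmimic, 9.57, 9.54 and 9.61 with Dmimic, and 9.33, 9.42 and 8.81 with AllStar. The Qmimic arrays were the highest and no group overlapped another. With AllStar replicate 3 left out, the Qmimic difference was 0.37 (1.29-fold, adjusted p 0.0325) and the Dmimic difference 0.19 (adjusted p 0.171).

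MOV10, a helicase that binds Argonaute, read 7.94, 7.97 and 7.94 with Qmimic, 7.62, 7.90 and 7.63 with Dmimic, and 8.17, 8.14 and 7.79 with AllStar. Over 8 arrays the Qmimic difference was -0.20 (adjusted p 0.247) and the Dmimic difference -0.44 (1.36-fold, adjusted p 0.0345). Its probe set 233917_s_at gave -0.41 with Dmimic (adjusted p 0.0334). ELAVL1, which binds AU-rich elements, differed by -0.19 with both mimics (adjusted p 0.196), PUM2, a repressor that binds Pumilio elements, by -0.07, and FXR1, a relative of FMR1, by -0.03. The terminal uridylyltransferases TUT4 and TUT7, which add uridines to RNA 3′ ends, differed by -0.08 and 0.11 (adjusted p 0.547 and 0.468).

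Over the whole machinery, then, adjusted p alone was under 0.05 without AllStar replicate 3 for 6 of 45 genes with Qmimic, against 2.09% of all genes: XPO5, TNRC6C, CNOT6 and CNOT8 lower, DCP2 and FMR1 higher. With Dmimic it was 3 of 45 (CNOT6 and MOV10 lower, DCP2 higher), against 3.32% of all genes. With both mimics it was 3 of 45 (CNOT6, DCP2 and FMR1), against 4.03%. Over 9 arrays the only machinery probe sets under 0.05 were the 2 of DCP2, with both mimics, against 0.0897% of all probe sets. Counted by probe set over 8 arrays, 14 of 146 passed with Qmimic, 7 with Dmimic and 10 with both mimics, against 1.75%, 2.31% and 3.02% of all probe sets. Shares among other genes as bright as the machinery were not tested.

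For both mimics against AllStar, counts of genes whose arrays did not overlap stayed near the shares of all genes. Between the mimics they did not, at 19 of 45 genes against 17.5% of all genes. The machinery genes were brighter than most, and whether other genes as bright reach a like share was not tested. Over 9 arrays all 6 mimic arrays lay above all AllStar arrays for 6 of 45 genes (AGO4, CNOT3, DCP2, LSM1, XRN1 and FMR1), against 12.8% of all genes, and below them for 1 (CNOT6), against 4.21%. Over 8 arrays there were 6 above, against 14.8%, and 6 below (XPO5, CNOT6, CNOT10, EDC4, ELAVL1 and MOV10), against 11.5%.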

How the data were processed

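Biotin-labelled total RNA was read on 9 Affymetrix HG-U133 Plus 2.0 arrays. The deposited values are log2 signals normalised by the authors with RMA, and limma was their test, per the labels and the submitters' processing notes. No genome build is given in the sources used here. Control probe sets (62) were left out, which kept 54613. The annotation gave 41091 probe sets 1 symbol, 1801 several and 11721 none. One limma model (limma 3.58.1, R 4.3.3) with 3 groups gave 4 comparisons, with Benjamini-Hochberg adjustment over all probe sets, and was repeated without AllStar replicate 3. It was tested on simulated data. The number of arrays limits the precision.

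Members, lists and alternatives were chosen with earlier results of these data known. Text names members with a called probe set, the 2 largest differences of each complex, any member when its complex is accounted for, and called genes of a wider RNA decay list. Some members' probe sets were named after their values were seen. Replicate numbers were not used as pairs in the main fits. Residual correlations of 9 same-numbered pairs ran from -0.275 to 0.219, and 3 passed 0.1. With 3 arrays in a group, and AllStar replicate 3 apart from the rest, these correlations cannot exclude a pairing. Alternatives were a replicate block, 3 other normalizations, a filter on low values, other thresholds, any probe set of a gene, the compared groups alone, and each array left out.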

Additional observations from a re-analysis of the deposited data

Results flagged for a closer look

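CNOT8 stood out because the responses to the mimics differed from each other. The difference between Qmimic and Dmimic was -0.54 on the log2 scale, and all 3 Qmimic arrays lay below all 3 Dmimic arrays. For this difference limma's adjusted p was 0.9999 over 9 arrays and 0.0132 without AllStar replicate 3, which is in neither mimic group. The mimic arrays fitted alone gave an adjusted p of 0.0365. The value missed the 1.5-fold threshold, and leaving out Qmimic replicate 1 or Qmimic replicate 2 as well raised the adjusted p to 0.0888 or 0.0768.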

How the results depend on the processing

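The counts of called machinery genes were small and moved with single arrays. Over 9 arrays the count for both mimics was 1 as reported, 0 with the replicate block (DCP2 1.01, adjusted p 0.101), 0 with each array centred on its median (adjusted p 0.0628), 0 at a log2 change of 1.5, and 2 with repeated quantile normalization or cyclic loess. Qmimic, at 0 as reported, gave 1 with quantile normalization and 2 with cyclic loess, and Dmimic, at 0, gave 1 with each. With 1 array left out in turn the counts ran from 0 to 2 for Qmimic, for Dmimic and for both mimics, and were 2 without AllStar replicate 3. For both mimics the DCP2 call was lost without AllStar replicate 1 (adjusted p 0.0775) or without any 1 of the 6 mimic arrays (0.0674 to 0.156).

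Without AllStar replicate 3 the counts of 2 for Qmimic, Dmimic and both mimics were each 1 with the replicate block, which kept DCP2 (CNOT6 adjusted p 0.0668, 0.137 and 0.0727), and each 0 at a log2 change of 1.5. Adjusted p alone gave 6 for Qmimic. The compared groups alone gave 3 for Qmimic, DICER1 being added, and 1 for Dmimic. With a further array left out, counts ran from 0 to 3 for Qmimic and for both mimics and from 0 to 2 for Dmimic. The added gene was DICER1 without Dmimic replicate 2 (Qmimic and both mimics) and XPO5 without Qmimic replicate 3 (Qmimic). Counts were 0 without AllStar replicate 1, which leaves 1 control array assumed to vary like the mimic arrays; DCP2 then had adjusted p 0.0969 with Qmimic and 0.0930 with Dmimic. Between the mimics the count of 0 became 1 by adjusted p alone, CNOT8, and ran from 0 to 1 with an array left out (1 without Dmimic replicate 1). The block changed no other call. Of 2508 values of single members under alternatives, 28 were no longer called, 17 were newly called, and 0 turned sign with a call. The other 2463 included 88 sign changes among values with no call on either side. Only DCP2 and CNOT6 had calls to lose, so most of the 2508 could not lose one. The DCP2 call with both mimics over 9 arrays was kept in 2 of 9 fits with an array left out. Among alternatives that left out no single array, it was kept in 3 of 5. Over 8 arrays those alternatives kept every DCP2 call, while CNOT6 kept its call in 5 of 6 for Qmimic and 4 of 6 for Dmimic. For both mimics, a fit of the compared groups alone equals the full fit and was not run. The control group of 3 arrays, or 2, limits the size of change that can pass.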

Other observations

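A wider list of 88 RNA decay and translation genes outside the machinery, of which 81 were measured, held few calls. Over 9 arrays limma called 0 of 81 in each of the 4 comparisons, with 18 at an unadjusted p under 0.05 for Qmimic (19.7% of all genes), 21 for Dmimic (17.3%), 21 for both mimics (24.1%) and 1 between the mimics (2.54%). Over 8 arrays the calls were 0 for Qmimic (0.693% of all genes), 2 for Dmimic (1.27%), 1 for both mimics (1.04%) and 0 between the mimics (0.0961%). CPEB4, which binds cytoplasmic polyadenylation elements, read 8.74, 8.79 and 8.52 with Qmimic, 8.89, 8.86 and 9.01 with Dmimic, and 8.13, 8.22 and 7.17 with AllStar. Without AllStar replicate 3 it rose 1.68-fold with Dmimic (adjusted p 0.00945) and 1.55-fold with both mimics (adjusted p 0.00802), and differed by 0.51 with Qmimic (adjusted p 0.0279). Over 9 arrays the difference with both mimics was 0.96 and did not pass (adjusted p 0.0815). TSN, the RNA-binding protein translin, read 9.32, 9.53 and 9.56 with Qmimic, 9.32, 9.42 and 8.90 with Dmimic, and 9.87, 9.85 and 9.36 with AllStar. Over 8 arrays it fell 1.57-fold with Dmimic (adjusted p 0.0402), and it differed by -0.39 with Qmimic (adjusted p 0.163). AllStar replicate 3 was the lowest AllStar array for both genes, and over 9 arrays neither passed.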
